A study of Mus musculus with 14 samples.

Results

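The nuclear genes for the subunits of oxidative phosphorylation were examined in sorted lung group 2 innate lymphoid cells (ILC2s). Members were chosen by name: complex I from the Nduf genes of the a, b, c, s and v series, complex II from Sdha to Sdhd, complex III from Uqcr, complex IV from Cox4 to Cox8 and complex V, the ATP synthase, from Atp5, leaving out pseudogene names. The rule found 83 members among 53278 genes, 37 for complex I, 4 for complex II, 8 for complex III, 18 for complex IV and 16 for complex V. All 83 are annotated as protein coding, and they lie on 19 chromosomes. A few are not classical subunits: Ndufa4 is now counted with complex IV, Cox7a2l helps join complexes III and IV into supercomplexes, and Atp5s is a coupling factor.

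Bulk RNA-seq was made from ILC2s of female mice, gated as live, lineage-, CD90.2+ and CD3- cells. The stimulation experiment held 4 unstimulated libraries and 4 libraries from cells given IL-33 at 20 ng/mL for 24 h, all of B6 genotype. The series design assigns 8 individual mice to these groups, while sample titles reuse the mouse numbers in both groups and some figure legends of the study describe sorts pooled from 2 animals. The Blimp-1 experiment held 3 Control libraries (ControlIL7RaCre) and 3 Blimp-1-deficient libraries (Blimp-1IL7RaCre), all activated with IL-33 and IL-25 at 20 ng/mL each for 72 h, to which the methods add IL-2. The mice of the Blimp-1 experiment were matched in age, and the methods put all animals above 6 weeks. The Cre is driven by the IL7Rα gene, so Blimp-1 is also deleted in other lymphocytes of these mice, and differences may arise before the cells are cultured. The labels describe the unstimulated cells as kept in medium without a time, while elsewhere the study calls them ex vivo. If they were not cultured, culture and IL-33 cannot be told apart.

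Oxidative phosphorylation takes place at the inner mitochondrial membrane. Complexes I and II pass electrons from NADH and succinate to ubiquinone, complex III hands them to cytochrome c and complex IV gives them to oxygen. Complexes I, III and IV pump protons, and the ATP synthase lets protons flow back through a ring of c subunits to make ATP. Most subunits are encoded in the nucleus, while a core of complexes I, III, IV and V is encoded in mitochondrial DNA, so both genomes contribute to each of those complexes. ILC2s are known to raise their metabolism when alarmins such as IL-33 activate them.

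Libraries of the stimulation held 10470125 to 32849428 counts, and those of the Blimp-1 experiment 13570188 to 76448945. A pair of libraries stood apart. IL-33 library 3 had the fewest counts of its experiment, its sum of 7 muscle and heart markers was 35.5 CPM (TMM-normalized counts per 1e+06 counts) against 0.559 to 2.32 in the other 7 libraries, and it was the lowest of its group in 71 of 78 members tested (55.4% of all genes tested). Control library 2 had 64.6% of its counts on 3 loci that carry ribosomal RNA sequence, and its sum of 10 epithelial, endothelial and stromal markers was 4030 CPM against 211 to 718 in the other 5. Its muscle and heart sum was 141 CPM against 3.45 to 25.9 CPM in the other 5. Of those 3 loci, CT010467.1 was also among the 3 highest of IL-33 library 3. Control library 2 was the lowest Control in 53 of 79 members (50.2% of all genes tested). Results are therefore given with and without these libraries, and the part that their other-tissue RNA has in the results was not tested. All 11 ILC2 markers were detected, and after IL-33, 3 of them rose and 6 fell. The sum of 9 T cell markers was 191 to 216 CPM in unstimulated and 50.04 to 74.4 CPM in IL-33 libraries, with 5 that fell. The epithelial, endothelial and stromal sum was 487 to 784 and 273 to 480 CPM, with 4 that fell and 1 that rose, and the sum of 5 mast cell and basophil markers was 7.12 to 14.7 and 0.0324 to 0.985 CPM, with 1 that fell. Their part in the results was not tested. Prdm1, which encodes Blimp-1, was at 75.2, 92.8 and 74.0 CPM in Controls and at 14.6, 11.5 and 11.4 CPM in Blimp-1-deficient libraries. In bulk RNA, fewer cells of a type and less RNA per cell cannot be told apart.

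**Figure D1:**
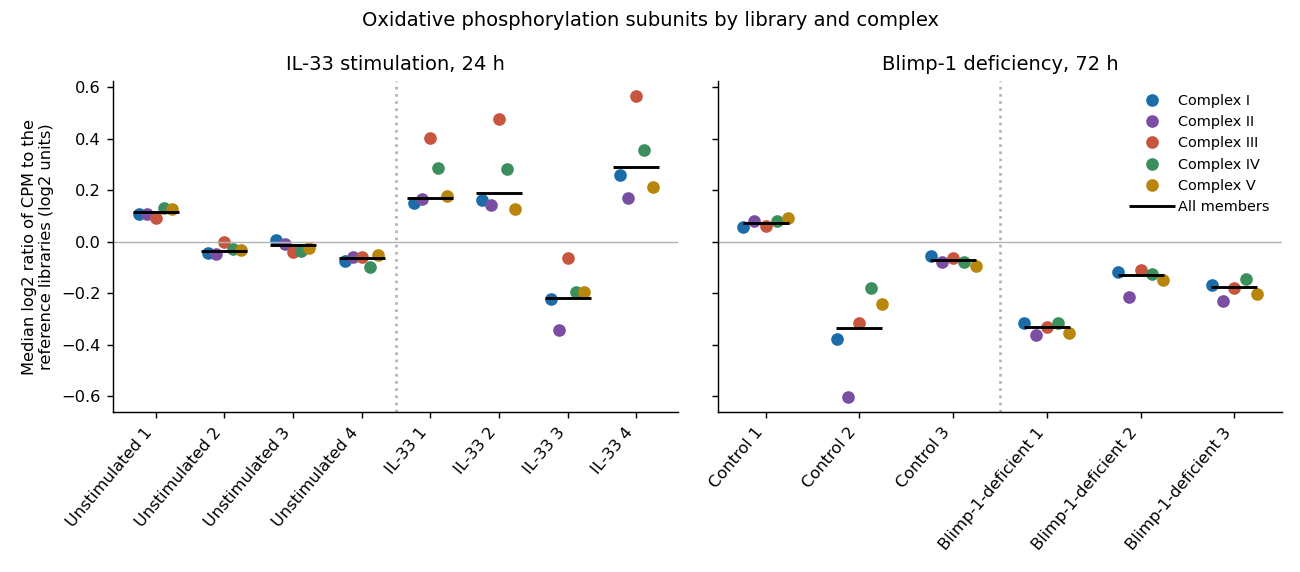
Median log2 ratio of each library's CPM to the mean of the reference libraries (y axis, log2 units) for the members of each complex (coloured points) and for all members (black bars), by library (x axis). The reference libraries are the 4 unstimulated ones on the left and Controls 1 and 3 on the right. IL-33 libraries 1, 2 and 4 lie at 0.17, 0.19 and 0.29 over all members and IL-33 library 3 at -0.22, while Control library 2 lies at -0.33.

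Genes for the same complex differed widely in level. Levels were read per kb of the deposited gene length, which for most genes equals all annotated exon bases together. Only members at 1 CPM per kb or more were used for the medians. In unstimulated ILC2s these were 39.0 for complex I (36 of 37 members), 62.1 for complex II and 62.9 for complex III. They were 88.9 for complex IV (12 of 18 members) and 66.0 for complex V, and complex IV was highest only with this cutoff. The highest level was that of Cox8a, a small subunit of complex IV, at 255 ± 27.2 CPM per kb (SD, n = 4), followed by Cox6a1, also of complex IV, at 246 ± 17.4 and Atp5b, the catalytic β subunit of the ATP synthase, at 246 ± 11.2, gaps smaller than their spread. Ndufb2, an accessory subunit of complex I, was at 2.68 ± 0.326, on a deposited length of 5628 bases, which need not be that of its transcript. Members are short genes, with a median length of 1551 bases against 3931 for all genes tested.

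Complex IV uses subunits that come in a general form and a form typical of muscle, lung or testis. In ILC2s the general forms took nearly all counts. Cox4i1 held 99.97% ± 0.0344 (SD, n = 4) of the counts of the Cox4i pair in unstimulated libraries, Cox6a1 held 99.96% ± 0.0243 of its pair, and Cox7a2 held 99.5% ± 0.155 of the Cox7a1 and Cox7a2 pair. Cox7b2 and Cox8c, which are testis forms, had no count in any library of either experiment, where 3 counts in a library correspond to 0.0859 to 0.296 CPM in the stimulation experiment and 0.0311 to 0.731 CPM in the Blimp-1 experiment.

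Subunit c, which forms the rotating ring of the ATP synthase, is made from Atp5g1, Atp5g2 and Atp5g3. They encode the same mature protein behind different import sequences. Which gene supplies the protein was not measured, and only shares of RNA counts are given here for these genes. Their promoters are shown because the genes moved differently after IL-33, together with that of Ndufs4, a complex I subunit that rose in all fits that left out a library. Each sequence runs from 250 bases before to 50 bases after the RefSeq start in GRCm38.p6, with matched motif letters in capitals:
Atp5g1, chr11:96075582-96075881, minus strand: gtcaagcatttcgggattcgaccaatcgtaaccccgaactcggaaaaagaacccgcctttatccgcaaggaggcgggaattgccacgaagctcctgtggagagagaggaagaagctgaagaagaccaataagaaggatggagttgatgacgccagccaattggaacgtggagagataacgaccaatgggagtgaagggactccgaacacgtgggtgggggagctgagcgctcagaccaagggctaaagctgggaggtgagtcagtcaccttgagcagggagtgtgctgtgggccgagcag
Atp5g2, chr15:102670998-102671297, minus strand: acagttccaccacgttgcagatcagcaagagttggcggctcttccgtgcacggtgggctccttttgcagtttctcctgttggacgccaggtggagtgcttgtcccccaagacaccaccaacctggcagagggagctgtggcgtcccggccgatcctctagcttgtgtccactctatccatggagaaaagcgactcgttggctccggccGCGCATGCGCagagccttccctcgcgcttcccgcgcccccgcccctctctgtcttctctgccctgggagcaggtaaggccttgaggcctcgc
Atp5g3, chr2:73911277-73911576, minus strand: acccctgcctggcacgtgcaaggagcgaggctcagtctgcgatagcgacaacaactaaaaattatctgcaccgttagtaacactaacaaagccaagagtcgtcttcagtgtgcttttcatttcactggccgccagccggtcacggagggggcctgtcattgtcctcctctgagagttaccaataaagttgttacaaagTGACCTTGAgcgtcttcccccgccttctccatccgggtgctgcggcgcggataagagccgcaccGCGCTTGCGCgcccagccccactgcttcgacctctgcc
Ndufs4, chr13:114388045-114388344, minus strand: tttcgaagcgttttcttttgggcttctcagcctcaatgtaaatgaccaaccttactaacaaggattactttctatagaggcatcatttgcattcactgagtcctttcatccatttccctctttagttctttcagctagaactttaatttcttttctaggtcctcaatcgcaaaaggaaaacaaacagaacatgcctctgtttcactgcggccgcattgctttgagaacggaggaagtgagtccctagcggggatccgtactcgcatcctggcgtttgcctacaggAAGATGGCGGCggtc
The letters searched, on both strands, were the palindromic consensus of NRF1, an activator of nuclear genes for mitochondria, as in the capitals of Atp5g2 but with the sixth base free, CCGGAAG for ETS factors such as GABP, the long YY1 form as in the capitals of Ndufs4, its core AAGATGG, and TCAAGGTCA for the ERR receptors. Atp5g2 holds the NRF1 letters, Atp5g3 holds the ERR letters and, further on, the NRF1 letters, both read from the other strand, Ndufs4 holds the YY1 letters just after its start, and the Atp5g1 window holds none of them. The YY1 form contains its core, and the NRF1 letters can match both strands at the same place, which was counted once per promoter.

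Promoter windows were found for 68 of the 83 members, 66 by symbol and 2 by synonym. The NRF1 letters were present in 17 of them, 25%. They were present in 5.19% of all 27025 genes with promoter windows of the same length. Among such genes tested in either experiment, members included, they were present in 10.4%. The ETS letters were in 23.5% of member promoters, against 9.93% of all and 18.3% of tested genes, and the long YY1 form was in 5.88%, against 0.755% and 1.62%. The YY1 core was in 16.2%, against 7.28% and 7.98%, and the ERR letters were in 2 member promoters, 2.94%, against 0.466% and 0.284%. Member promoters had a median GC content of 57.8%, between those of all promoters (52.8%) and of tested genes (60.3%). These are matches of letters, and no binding was measured here.

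The first comparison asked how IL-33 changed these genes. Of 78 members tested, 17 rose and 1 fell (edgeR's quasi-likelihood test, adjusted p below 0.05), where 16.2% of all 15466 genes tested rose and 16.1% fell (32.3% in either direction). The median log2 fold change was 0.12 over the members and 0.06 over all genes. Without unstimulated library 1 these medians were 0.22 and 0.12, and without IL-33 libraries 2 and 4 they were 0.08 and 0.05, and 0.06 and 0.05. Without IL-33 library 3, 45 members rose and 3 fell, where 27.5% of all genes rose and 29.7% fell, and the medians were 0.20 and -0.05. The 45 included all 17. All 4 IL-33 libraries lay above all 4 unstimulated ones for 13 members and below them for 2, as in 17% and 20.9% of all genes, and without IL-33 library 3 this held for 43 and 3 members, as in 28.6% and 30.1% of all genes. The count of members that rose was 27, 18, 8 and 16 of 78 without unstimulated libraries 1, 2, 3 and 4, where 16.9%, 15.4%, 11.8% and 15.9% of all genes rose. It was 11, 9 and 10 without IL-33 libraries 1, 2 and 4, where 12.7%, 12% and 12.4% of all genes rose, so the counts without unstimulated library 3 or without these IL-33 libraries were near the share of all genes. In each of the 8 fits that left out 1 library 8 members rose (Atp5b, Atp5g1, Atp5g3, Cox7b, Ndufs1, Ndufs4, Uqcrb and Uqcrc2), as did 11% of all genes.

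The scale mattered for how many members were called in each direction. With libraries scaled by their total counts alone 9 members rose and 6 fell, where 11.7% of all genes rose and 23.9% fell. On log2(TPM + 1) 2 rose and 11 fell, where 6.53% of all genes rose and 30% fell. On those scales the median of all genes moved to -0.10 and -0.25, and the median of the members was 0.06 and 0.04 above it, against 0.06 in the comparison first given. With a length correction the medians were 0.09 for the members and 0.11 for all genes, and without unstimulated library 4 they were 0.12 for both. Atp5g1 rose and Cox7a2l fell in all 18 alternative settings, as did 6.74% and 11.3% of all genes tested in each of them.

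**Figure D2:**
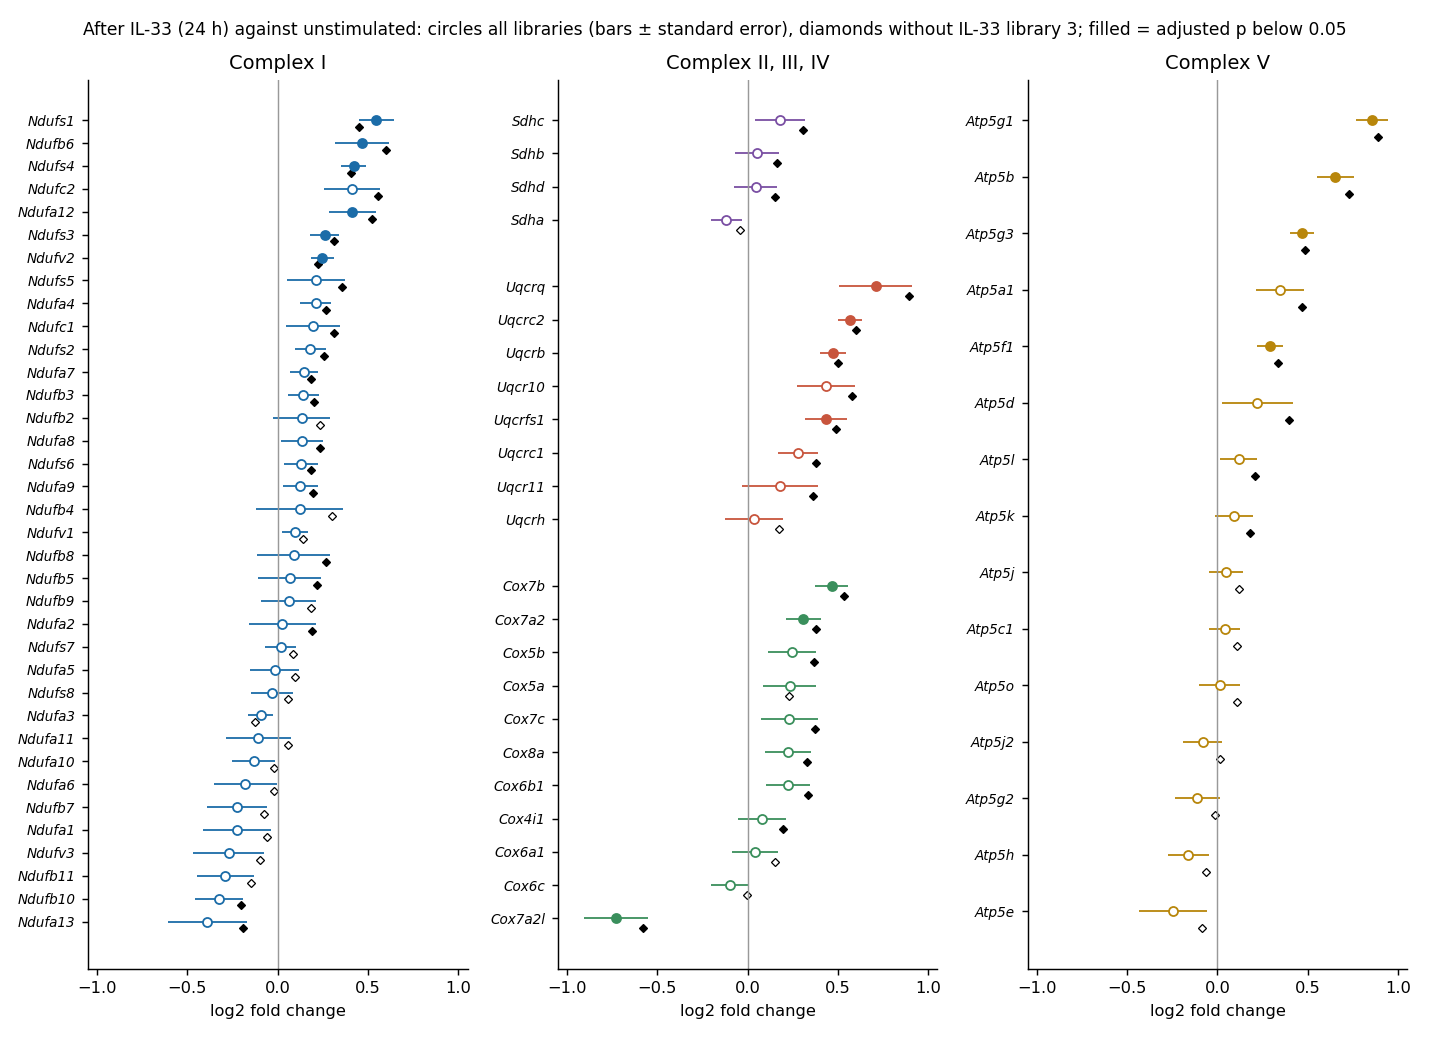
Log2 fold change after IL-33 (x axis) for 74 members with a mean of at least 5 CPM (y axis, by complex); the 4 other members tested are not drawn. Circles use all 8 libraries with bars of ± 1 standard error, diamonds leave out IL-33 library 3, and filled symbols have an adjusted p below 0.05. All 8 complex III genes lie above 0 and Cox7a2l lies far to the left.

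For complex I, 6 of 36 members tested rose (16.7%, beside 16.2% of all genes) and none fell with all libraries, with a median log2 fold change of 0.11. Without IL-33 library 3, 19 rose and 2 fell, where 27.5% of all genes rose and 29.7% fell. Ndufs1 encodes the largest subunit, which holds iron-sulfur clusters in the arm that takes electrons from NADH. It was at 80.9, 83.4, 88.3 and 92.5 CPM in unstimulated libraries and at 117, 118, 150 and 119 CPM in IL-33 libraries. The groups did not overlap, and unlike most members it was highest in IL-33 library 3. It rose by 0.54 ± 0.10 (log2 fold change ± SE, adjusted p = 0.0037), a 1.46-fold rise. Ndufs4, an accessory subunit of the same arm, was at 54.6, 48.0, 52.3 and 47.9 CPM and after IL-33 at 65.0, 67.6, 69.9 and 68.7 CPM, again without overlap (log2 fold change 0.42 ± 0.07, adjusted p = 0.0022).

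The NADH-binding arm was read as 8 members (Ndufv1, Ndufv2, Ndufv3, Ndufs1, Ndufs4, Ndufs6, Ndufa2 and Ndufa12), of which 4 rose, where 16.2% of all genes rose. Its summed level went from 485 ± 12.3 to 565 ± 25.7 CPM (SD, n = 4 each), while all of complex I went from 2197 ± 94.2 to 2298 ± 307 CPM. Ndufv2, which holds an iron-sulfur cluster, rose by 0.25 ± 0.06 (adjusted p = 0.018), and Ndufs3, of the part next to that arm, rose by 0.26 ± 0.08 (adjusted p = 0.039), but both turned to -0.08 and -0.07 on log2(TPM + 1). Ndufv1, which binds NADH, was at 0.10 ± 0.07 (adjusted p = 0.32), and Ndufs7 and Ndufs8, which lie on the path to ubiquinone, were at 0.02 ± 0.09 and -0.03 ± 0.12. Differences between these genes were not tested.

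Ndufb6 and Ndufa12, both accessory subunits, rose by 0.47 ± 0.15 and 0.41 ± 0.13 (both adjusted p = 0.044). For Ndufb6, 39.0% of the exon bases overlap Smim27 on the opposite strand, and the strand used in counting is not given. In the other direction, Ndufa13 was at 112, 101, 109 and 101 CPM in unstimulated and at 88.0, 87.9, 45.1 and 102 CPM in IL-33 libraries. With all libraries Ndufb10 stood at -0.33 ± 0.13 (adjusted p = 0.095) and Ndufa13 at -0.39 ± 0.22 (adjusted p = 0.20). Leaving out IL-33 library 3, Ndufa13 fell by 0.19 ± 0.07 (adjusted p = 0.035) and Ndufb10 by 0.20 ± 0.06 (adjusted p = 0.010). With all 8 libraries Ndufb10 also passed with library size alone, with a length correction and on both TPM scales, and Ndufa13 on log2(TPM + 1), each time as lower. Ndufa13 shares 30.0% of its exon bases with Tssk6 on the opposite strand.

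Complex II, the enzyme that also serves the tricarboxylic acid (TCA) cycle, had no member past the test with all libraries (edgeR, with 0 of 4 at an unadjusted p below 0.05, beside 43.9% of all genes, and 0 by DESeq2). The catalytic flavoprotein gene Sdha was at 268, 266, 280 and 255 CPM before and at 260, 261, 207 and 257 CPM after IL-33. The summed level of the 4 genes was 599 ± 23.0 CPM in unstimulated and 599 ± 85.1 CPM in IL-33 libraries. The spread of the second group came from IL-33 library 3, at 471 CPM against 639 to 644 CPM in the other 3. Without it Sdhb, Sdhc and Sdhd rose by 0.16 ± 0.05, 0.31 ± 0.06 and 0.15 ± 0.06 (adjusted p = 0.022, 0.0023 and 0.045), while Sdha was at -0.04 ± 0.05 (adjusted p = 0.49).

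Complex III showed the highest median of the 5 complexes, 0.43, with all 8 members above 0 and 4 past the test (50%, beside 16.2% of all genes). Leaving out IL-33 library 3, 7 of 8 rose (beside 27.5% of all genes). The median was 0.27 with library size alone and 0.09 on both TPM scales. Uqcrc2, a core subunit, was at 127, 115, 114 and 122 CPM in unstimulated and at 169, 185, 166 and 189 CPM in IL-33 libraries, so every IL-33 library lay above every unstimulated one. It rose by 0.57 ± 0.07 (adjusted p = 0.000505), although 19.8% of its exon bases overlap Pdzd9 on the opposite strand. Uqcrq, a small subunit beside cytochrome b, had the largest log2 fold change of the complex, 0.71 ± 0.20 (adjusted p = 0.029). Its levels went from 54.8, 53.2, 52.8 and 52.5 CPM to 92.3, 98.1, 51.3 and 107 CPM. Here 3 IL-33 libraries stood far above the unstimulated ones and IL-33 library 3 stood below them all, and without that library the log2 fold change was 0.89 ± 0.06 (adjusted p = 9.3e-07).

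Uqcrb and Uqcrfs1, the Rieske iron-sulfur protein, rose by 0.47 ± 0.07 and 0.43 ± 0.12 (adjusted p = 0.0017 and 0.023). The other core subunit, Uqcrc1, was at 0.28 ± 0.11 (adjusted p = 0.093) with all libraries and rose by 0.38 ± 0.06 (adjusted p = 0.00032) without IL-33 library 3. Summed over the complex, the level was 683 ± 40.6 CPM before and 886 ± 134 CPM after IL-33, a ratio of 1.30, or 1.39 without that library.

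In complex IV, 3 of 14 members tested rose and 1 fell (21.4% and 7.14%, beside 16.2% and 16.1% of all genes), with a median log2 fold change of 0.22 beside 0.06 for all genes. Without IL-33 library 3, 8 rose and 1 fell (57.1% and 7.14%, beside 27.5% and 29.7%), with a median of 0.28. The median was 0.06 with library size alone, 0.09 with the length correction and -0.13 on log2(TPM + 1). Cox7b and Cox7a2, small nuclear subunits, rose by 0.46 ± 0.09 (adjusted p = 0.0055) and 0.31 ± 0.10 (adjusted p = 0.039), the latter turning to -0.02 on log2(TPM + 1). Cox7a2l moved the other way. It was at 121, 101, 107 and 99.1 CPM in unstimulated ILC2s and at 65.8, 69.3, 42.8 and 79.7 CPM after IL-33, with no overlap. It fell by 0.73 ± 0.18 on the log2 scale (adjusted p = 0.015), to 0.603 of its level, and by 0.58 ± 0.09 (adjusted p = 0.00033) without IL-33 library 3. Cox7a2 and Cox7a2l are related genes that bind at the same place on complex IV, and they changed in opposite directions on the count scale. Cox4i2, the lung form, was at 0, 0.172, 0.0425 and 0.0630 CPM before and at 0.526, 0.421, 0.887 and 0.496 CPM after IL-33 and passed the test (adjusted p = 0.017), but Cox4i1 still held 99.7% of the counts of the pair.

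In complex V, 4 of 16 members rose (25%, beside 16.2% of all genes) and none fell, with a median of 0.07 beside 0.06 for all genes. Without IL-33 library 3, 8 rose (beside 27.5% of all genes), with a median of 0.15 beside -0.05 for all genes. Atp5b, the most abundant member by CPM, was at 1111, 1016, 1026 and 1009 CPM in unstimulated and at 1646, 1743, 1365 and 1786 CPM in IL-33 libraries. The groups were far apart, and it rose 1.57-fold (log2 fold change 0.65 ± 0.10, adjusted p = 0.0021). Its catalytic partner in the head of the enzyme, the α subunit gene Atp5a1, was at 0.35 ± 0.13 (adjusted p = 0.083) and rose by 0.47 ± 0.06 (adjusted p = 8.7e-05) without IL-33 library 3. Atp5f1, of the stalk that holds the head still, rose by 0.29 ± 0.07 (adjusted p = 0.018). The summed level of complex V went from 3483 ± 190 to 4464 ± 573 CPM, a ratio of 1.28.

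The 3 genes for subunit c did not change alike. Atp5g1 was at 60.3, 53.3, 55.7 and 48.5 CPM in unstimulated and at 92.5, 105, 91.4 and 104 CPM in IL-33 libraries, and it rose 1.81-fold (log2 fold change 0.85 ± 0.09, adjusted p = 0.00025). Atp5g3 went from 255, 224, 220 and 226 CPM to 317, 318, 307 and 335 CPM (log2 fold change 0.47 ± 0.07, adjusted p = 0.0013). Atp5g2 was at 68.9, 61.4, 58.1 and 58.3 CPM and then at 56.0, 61.1, 44.7 and 66.2 CPM (log2 fold change -0.11 ± 0.13, adjusted p = 0.51). The first pair of genes separated the groups without overlap in IL-33 library 3 as well, and Atp5g2 did not.

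As shares of the counts of the 3 genes, which do not depend on how libraries are scaled, Atp5g1 went from 15.7% ± 0.864 to 20.7% ± 0.786 and Atp5g2 from 17.8% ± 0.342 to 12.0% ± 1.32 (SD, n = 4 each). In an exact two-sided permutation test over the libraries each of these had p = 0.0286, the smallest that 4 against 4 allows, and an adjusted p of 0.0429 over the 3 genes. Atp5g3 held 66.6% ± 0.908 and 67.3% ± 1.67 (exact permutation p = 0.514). The shares are of counts, without a correction for gene length. Per kb of deposited length Atp5g2 stayed above Atp5g1, at 36.8 and 11.1 CPM in unstimulated and 34.0 and 20.0 CPM in IL-33 libraries. Without IL-33 library 3 the shares of Atp5g1 and Atp5g2 differed by 5.05 and -5.18 percentage points (exact permutation p = 0.0571 each, the smallest that 4 against 3 allows). The shares were tested after their values had been seen. For Atp5g2, 35.8% of the 75-base stretches also occur in other annotated genes, mainly Gm10175 and Gm10231, and how such reads were counted is not given.

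**Figure D3:**
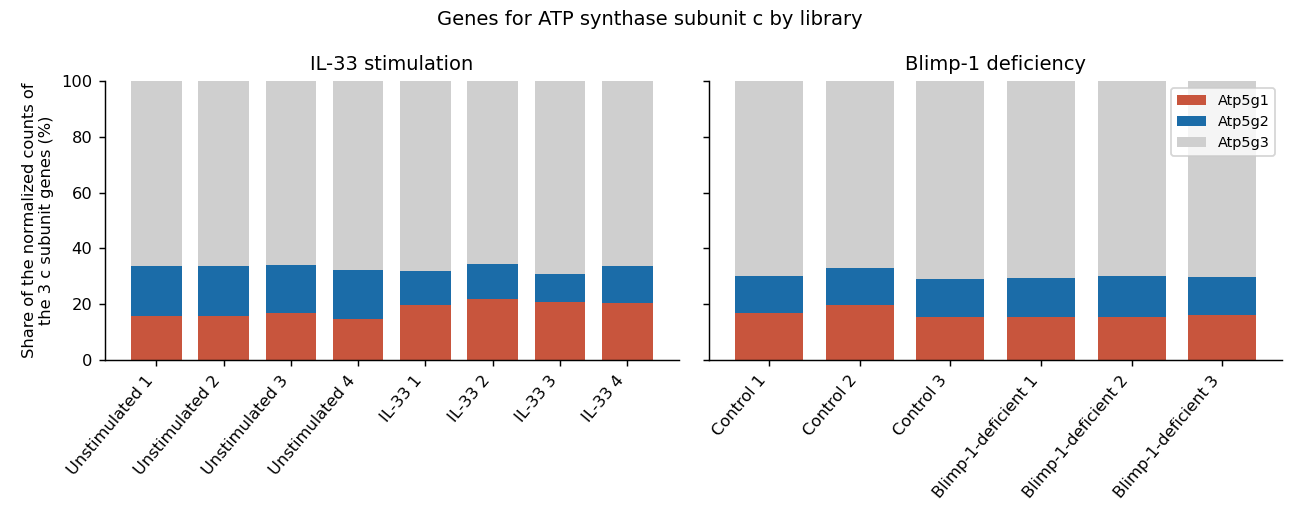
Share of the normalized counts of Atp5g1, Atp5g2 and Atp5g3 (y axis, %) in each library (x axis), stacked to 100%. After IL-33 the Atp5g1 share is 19.9 to 21.8% in all 4 libraries against 14.6 to 16.7% in unstimulated ones, and the Atp5g2 share is 10.1 to 13.1% against 17.4 to 18.1%.

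Changes were also read by the letters in the promoter, without a test. For the NRF1 letters the median log2 fold change was 0.04 over 17 members tested with them and 0.13 over 49 without them, or 0.15 and 0.22 without IL-33 library 3. The medians with and without the letters were 0.05 and 0.13 for ETS, 0.13 and 0.09 for the long YY1 form (4 members with it) and 0.26 and 0.11 for ERR (2 members with it). Without IL-33 library 3 they were 0.17 and 0.21 for ETS, 0.190 and 0.192 for the long YY1 form and 0.32 and 0.19 for ERR.

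Genes that belong to the same complexes but lie outside the name rule were read next. Of 6 further nuclear subunits and carriers tested, 4 rose and 1 fell, where 16.2% of all genes rose and 16.1% fell. Ndufab1, the acyl carrier protein of complex I, rose by 0.76 ± 0.13 (adjusted p = 0.0029). Cyc1, the cytochrome c1 of complex III, rose by 0.68 ± 0.09 (adjusted p = 0.00077). Usmg5 of the ATP synthase rose by 0.66 ± 0.09 and Cycs, cytochrome c, by 0.65 ± 0.15 (adjusted p = 0.00089 and 0.011). Atpif1, the inhibitor of the ATP synthase, fell by 0.28 ± 0.07 (adjusted p = 0.021). None of the 13 subunits encoded in mitochondrial DNA passed the test (edgeR, median -0.07), with 1 at an unadjusted p below 0.05 and 1 called by DESeq2, and without IL-33 library 3 mt-Co1 and mt-Co2 of complex IV fell by 0.24 and 0.29 (adjusted p = 0.025 and 0.016). Counts for several of these genes are uncertain, since 99.5% of the 75-base stretches of mt-Co2, 99.9% of mt-Co3, 99.5% of mt-Atp6, 98.7% of mt-Nd4l, 97.8% of mt-Nd3, 61.5% of mt-Nd4 and 39.8% of mt-Co1 also occur in nuclear copies. The ratio of summed nuclear to summed mitochondrial subunit counts was 0.552, 0.586, 0.635 and 0.628 in unstimulated and 0.762, 0.797, 0.692 and 0.784 in IL-33 libraries. The groups did not overlap in this ratio, which no scaling of libraries changes, and it was not tested.

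Of all genes 16.2% rose and 16.1% fell with all libraries, and 27.5% and 29.7% without IL-33 library 3. Among 50 assembly factors tested, 12 rose and 2 fell, and without that library 24 rose and 5 fell. Ndufaf4 and Ndufaf6, needed to build complex I, rose by 0.91 ± 0.08 and 0.81 ± 0.17, and Sco1, which brings copper to complex IV, rose by 0.75 ± 0.11 (adjusted p = 9.6e-05, 0.0088 and 0.0015). Cmc2, a complex IV factor, fell by 1.19 ± 0.17 and Tmem126b, of complex I assembly, fell by 0.54 ± 0.17 (adjusted p = 0.0013 and 0.040). In the TCA cycle, which feeds complexes I and II, 11 of 13 genes rose, among them Mdh2 by 0.71 ± 0.15 and Idh3a by 0.56 ± 0.07 (adjusted p = 0.0082 and 0.00073). Of 19 regulators of mitochondrial gene expression 2 rose (10.5%, below the share of all genes), Tefm by 1.04 ± 0.17 and Twnk by 0.50 ± 0.10 (adjusted p = 0.0027 and 0.0053), both acting on mitochondrial DNA. When IL-33 library 3 was left out, 7 regulators rose and 1 fell, Nrf1, the gene of the activator NRF1, by 0.17 ± 0.05 (adjusted p = 0.018). Ppargc1a, a coactivator of these genes that is abundant in muscle, was at 31.6 CPM in IL-33 library 3 and at 0.356 to 0.888 CPM in the other 7 libraries of the experiment.

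Other gene groups were read beside the subunits. Of glycolysis genes 15 of 20 rose with a median of 0.96, of cytosolic ribosomal protein genes 22 of 87 rose with a median of 0.37, and of mitochondrial ribosomal protein genes 28 of 77 rose with a median of 0.29, none of the 3 groups having a gene that fell. Without IL-33 library 3 these counts were 16, 79 and 63, with 1 mitochondrial ribosomal protein gene that fell. The share of all genes that rose was 16.2% with all libraries and 27.5% without that library. The differences between these lists were not tested.

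**Figure D4:**
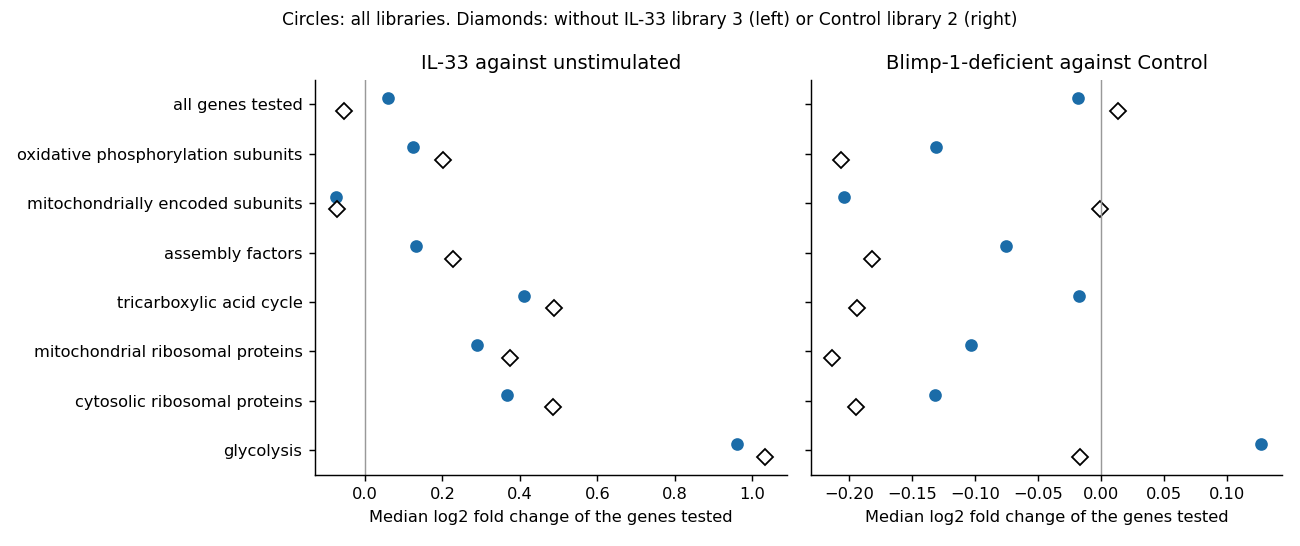
Median log2 fold change (x axis) of the genes tested in each list (y axis), after IL-33 on the left and in Blimp-1-deficient cells on the right. Circles use all libraries, and diamonds leave out IL-33 library 3 or Control library 2. On the left the oxidative phosphorylation subunits lie at 0.12 and glycolysis at 0.96, and on the right the subunits lie at -0.13 with all libraries and -0.21 without Control library 2.

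The second comparison asked whether loss of Blimp-1, a transcriptional repressor, changed the subunit genes in activated ILC2s. With all 6 libraries none of 79 members tested passed the test, where 0.45% of all 17335 genes were higher and 0.306% lower (0.756% in either direction). An unadjusted p below 0.05 was found for 9 of the 79 members, near the 11.9% of all genes, and DESeq2 called 0 members as well. Of the log2 fold changes 63 of 79 were below 0, with a median of -0.13, against -0.02 for all genes. The median was -0.04 without Control library 1, -0.12 without Control library 3, and -0.06, -0.17 and -0.14 without Blimp-1-deficient libraries 1, 2 and 3, where that of all genes was 0.01, 0.00, -0.01, -0.02 and -0.02. All 3 Blimp-1-deficient libraries lay below all 3 Controls for 18 members and above them for none, where this held for 10.8% and 11.8% of all genes tested.

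Without Control library 2, 11 of 80 members fell and none rose, where 5.72% of 17968 genes were lower and 8.25% higher. The median was -0.21 against 0.01 for all genes, and 75 of 80 were below 0. For 53 of the 80 both Controls lay above all 3 Blimp-1-deficient libraries, as in 26.1% of all genes. The 5 fits that left out another library called 0 to 7 genes higher and 0 to 2 lower among all genes, so no count of members can be read from them. With all 6 libraries the scale set the sign: library size alone moved the median of all genes to 0.45 and that of the members to 0.30, and log2(TPM + 1) moved them to 1.28 and 1.54.

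**Figure D5:**
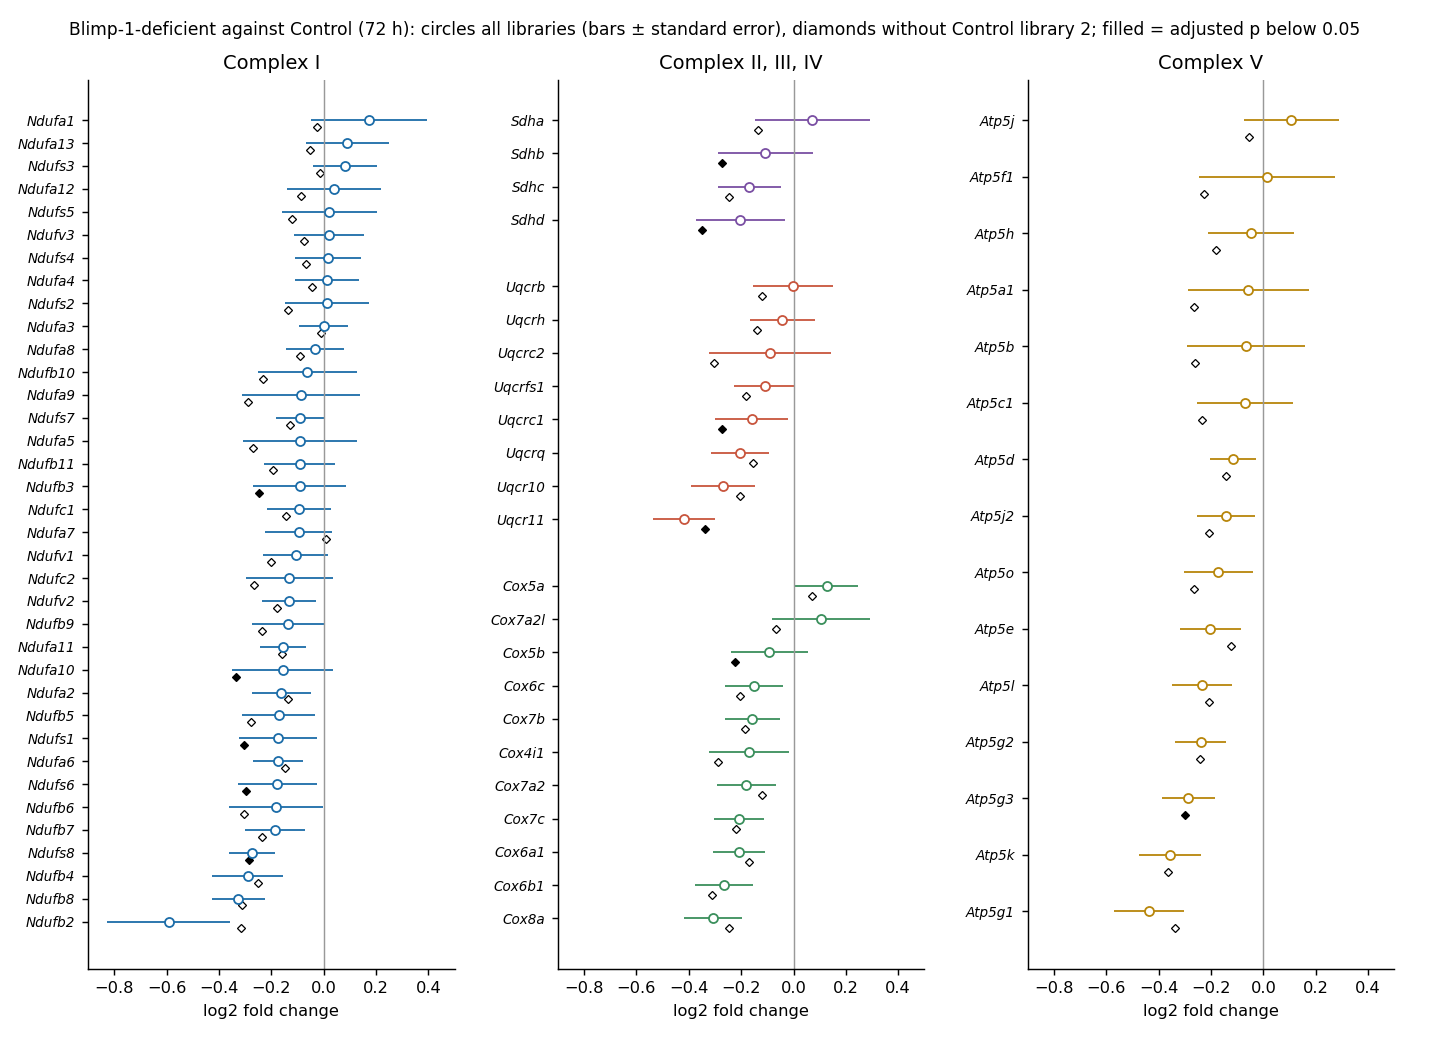
Log2 fold change of Blimp-1-deficient against Control libraries (x axis) for 74 members with a mean of at least 5 CPM (y axis, by complex); the 5 other members tested are not drawn. Circles use all 6 libraries with bars of ± 1 standard error, diamonds leave out Control library 2, and filled symbols have an adjusted p below 0.05. No circle is filled, and 11 diamonds are.

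The members that fell without Control library 2 came from every complex. For complex I they were Ndufs1, Ndufs6, Ndufs8, Ndufa10 and Ndufb3. Ndufs8, an iron-sulfur subunit next to the ubiquinone site, was at 42.8, 39.2 and 39.9 CPM in Controls and at 32.4, 35.7 and 32.9 CPM in Blimp-1-deficient libraries. Here Control library 2 lay with the other Controls, and the log2 fold change was -0.27 ± 0.09 with all libraries (adjusted p = 0.28) and -0.29 ± 0.07 without it (adjusted p = 0.039). Ndufs1 was at 92.4, 62.6 and 85.3 CPM in Controls and at 69.1, 71.9 and 73.5 CPM in Blimp-1-deficient libraries. In this gene Control library 2 was the lowest of all 6, and the log2 fold change went from -0.17 ± 0.15 to -0.30 ± 0.06 (adjusted p = 0.72 and 0.020).

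In complex II, Sdhd and Sdhb fell without Control library 2, by 0.35 ± 0.08 and 0.28 ± 0.07 (adjusted p = 0.036 and 0.037). Sdhd, which anchors the enzyme in the membrane, was at 87.0, 55.0 and 76.4 CPM in Controls and at 59.1, 68.3 and 64.0 CPM in Blimp-1-deficient libraries, so that Control library 2 was again the lowest. In complex III, Uqcr11 was at 42.3, 48.0 and 40.2 CPM in Controls and at 28.5, 34.4 and 34.3 CPM in Blimp-1-deficient libraries. Control library 2 was the highest in this gene, the groups did not overlap, and the log2 fold change was -0.42 ± 0.12 with all libraries (adjusted p = 0.22) and -0.34 ± 0.09 without it (adjusted p = 0.048). The core subunit gene Uqcrc1 fell by 0.27 ± 0.07 without that library (adjusted p = 0.039).

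Cox5b was the member of complex IV that fell without Control library 2 (by 0.22 ± 0.06, adjusted p = 0.046), and Atp5g3 was that of complex V. Atp5g3 was at 246, 221 and 216 CPM in Controls and at 176, 195 and 190 CPM in Blimp-1-deficient libraries, which did not overlap (log2 fold change -0.29 ± 0.10 with all libraries, adjusted p = 0.33, and -0.30 ± 0.08 without, adjusted p = 0.049). The summed level of the 3 c subunit genes was 329 ± 23.5 CPM in Controls and 266 ± 15.7 CPM in Blimp-1-deficient libraries (SD, n = 3 each), a ratio of 0.809 with and without Control library 2. The Atp5g1 share of their counts was 17.3% ± 2.14 and 15.8% ± 0.331 (exact permutation p = 0.4), and the Atp5g2 share was 13.4% ± 0.316 and 14.05% ± 0.435 (exact permutation p = 0.2). With 3 against 3 this test cannot go below 0.1, so it could make no call. Cox7a2l, which fell after IL-33, was at 89.4, 56.0 and 91.6 CPM in Controls and at 84.8, 88.3 and 84.0 CPM in Blimp-1-deficient libraries, and its log2 fold change was 0.11 ± 0.19 (adjusted p = 0.89).

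Other lists of the pathway gave few calls in this experiment. With all 6 libraries no gene passed among the mitochondrially encoded subunits, assembly factors, TCA cycle genes or either group of ribosomal protein genes (edgeR). An unadjusted p below 0.05 was found for 1 of 12, 0 of 50, 0 of 13, 10 of 77 and 5 of 87 genes of these lists, with the mitochondrial ribosomal proteins before the cytosolic ones, beside 11.9% of all genes, and DESeq2 called 2 cytosolic ribosomal protein genes and none in the others. In glycolysis the glucose transporter gene Slc2a3 fell by 1.47 ± 0.14 (adjusted p = 0.020), and Hk2, a hexokinase gene, was at 1.32 ± 0.23 (adjusted p = 0.072). Without Control library 2, 3 glycolysis genes rose and 1 fell, and Hk2 rose by 1.10 ± 0.06 (adjusted p = 0.00025). In that fit, where 5.72% of all genes were lower and 8.25% higher, 4 of 50 assembly factors, 3 of 13 TCA cycle genes and 10 of 78 mitochondrial ribosomal protein genes fell and none rose, and 3 of 87 cytosolic ribosomal protein genes fell and 1 rose. In the same fit Cyc1 and Cycs fell by 0.29 and 0.32 (adjusted p = 0.034 and 0.037), and no mitochondrially encoded subunit passed.

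Set side by side over the 78 members tested in both experiments, 46 were above 0 after IL-33 and below 0 in Blimp-1-deficient cells, 16 were below 0 in both and 10 above 0 in both. Without IL-33 library 3 and Control library 2 these counts were 57, 17 and 3. Most members lay above 0 in the first experiment and below 0 in the second, so many opposite signs follow from that alone. The sizes of change in both experiments had low correlations (Pearson r = 0.11 and Spearman rho = -0.07 across genes, which share libraries and are not independent replicates), and without those 2 libraries r was 0.26 and rho -0.16. The experiments differ in stimulus, time and genotype, and share no library.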

How the data were processed

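RNA-seq of sorted lung ILC2s was analysed in 14 libraries from 2 experiments, each with its own table. The authors amplified cDNA with SMART-seq v4, used cutadapt for trimming, HISAT2 for alignment to GRCm38 and Subread for counting, and deposited raw gene counts and TPM, while the submitters' processing notes also list Bowtie2 and DESeq2. TPM deposited by the authors are normalized for length and depth and served as an alternative.

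Counts were tested with edgeR 4.0.16 in R 4.3.3 (TMM, filterByExpr, quasi-likelihood, no covariate) over all genes, with Benjamini-Hochberg adjustment and a threshold of 0.05, all tests two-sided. CPM are TMM-normalized. Standard errors are the fold change over the root of F. Libraries come from individual mice, per the series design. The method was tested on simulated data. Members and lists were chosen with earlier results of these data known. Named members were those with the largest changes per complex among those past the threshold in either fit (mean of at least 5 CPM, ordered by the fit with all libraries), the catalytic and redox subunits, isoform families and members called with all libraries, and others were named after their values were seen. Alternatives were RLE and library-size scaling, DESeq2 1.42.0, limma 3.58.1 on log2(TPM + 1) and log2(TPM + 0.1), filters, a length correction, a block by replicate number, and each library left out in turn. Coordinates and overlaps come from GENCODE vM21, whose gene lengths equal those deposited for 95.3% of matched names, and promoters from RefSeq.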

Additional observations from a re-analysis of the deposited data

Results flagged for a closer look

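In groups of 4 libraries a value was singled out where its gap to the nearest other library, divided by the range of the group, exceeded Dixon's critical value. This held for 12 of 80 groups tested, 8 of them for IL-33 library 3, where chance gives about 1 in 20.

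IL-33 library 3 was low for the summed level of complex II (471 CPM), for Sdha (207 CPM), Sdhb (104 CPM), Sdhc (81.8 CPM) and Sdhd (78.3 CPM), and for the complex I genes Ndufb10 (38.6 CPM) and Ndufs7 (31.6 CPM). It was high for Ndufs1 (150 CPM). All 4 genes of complex II were therefore far below the other IL-33 libraries in the same library, which also had the fewest counts of its experiment and the muscle and heart markers given above.

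Unstimulated library 1 was high for Atp5g3 (255 CPM), Cox7a2 (141 CPM) and Sdhc (110 CPM). Unstimulated library 4 stood apart for Cox6b2, a testis form of complex IV at a low level (0.756 CPM).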

How the results depend on the processing

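After IL-33 the count of members that rose, 17, became 9 with library size alone, 8 without a filter, 8 with the replicate block and 2 on both log2(TPM + 1) and log2(TPM + 0.1). The count that fell, 1, became 6 with library size alone, 11 and 9 on the TPM scales, and 3 with the length correction, with or without the block. Of all genes, 1672 of 28268 rose without a filter, where 81 members were tested. On log2(TPM + 0.1) 975 of 15171 genes rose and 4373 fell. With the length correction 2387 of 15466 genes fell, or 1863 with the block added. The shares with library size alone and on log2(TPM + 1) are given above. Leaving out 1 library gave 8 to 45 that rose and 1 to 3 that fell. The median of the members was -0.21 and -0.22 on the TPM scales, where Cox7a2 (-0.0244 on both), Ndufs3 (-0.0727 and -0.0737) and Ndufv2 (-0.0822 and -0.0827) turned below 0. In the Blimp-1 experiment the median was 0.30 with library size alone and 1.54 and 1.65 on the TPM scales, and leaving out 1 library gave 0 to 11 members that fell. The replicate block left 0 members called there. The series design gives the groups different mice, so replicate numbers were not taken as pairs. Same-numbered libraries had correlations of -0.14, 0.22, 0.28 and 0.18 in the stimulation and -0.13, -0.13 and 0.12 in the Blimp-1 experiment. Of all genes, the block moved calls from 2508 higher and 2484 lower to 1802 and 1898 after IL-33, and from 78 and 53 to 0 and 0 in the Blimp-1 experiment, where DESeq2 called 545 and 534. In IL-33 library 3 and Control library 2, 3 counts correspond to 0.296 and 0.731 CPM, so members near these levels cannot be read there, and without Control library 2 the spread of the Controls rests on 2 libraries.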
